A study of Mus musculus with 6 samples.

Results

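The aminoacyl-tRNA synthetases were compared between livers with and without hepatic Klf15, a transcription factor of the Kruppel-like family. The members were taken by name: 20 cytoplasmic synthetases and 16 mitochondrial synthetases (symbols that end in 2), 36 of the 48432 genes in the deposited table, and newer annotations add 1 to the cytoplasmic names. The control group, Ctl, holds 3 liver libraries from Albumin-Cre mice, in which the albumin promoter drives Cre in hepatocytes. Li-KO stands for 3 liver libraries from mice with a liver-specific Klf15 knockout. All mice were 10 weeks old. The labels do not name the Cre transgene of the knockout mice, the deleted exon, or the sex, feeding and harvest hour. They also do not say that each library is a separate mouse, so the p-values here reflect spread between libraries, which may be technical.

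An aminoacyl-tRNA synthetase joins an amino acid to the tRNAs that carry its anticodons, at the cost of ATP. Each compartment that makes protein needs charged tRNAs for every amino acid. In animals the cytoplasm and the mitochondrion mostly use separate nuclear genes, while a few genes, such as those for glycine and lysine, serve both. Several cytoplasmic synthetases sit together in a multi-synthetase complex held by scaffold proteins, and many cytoplasmic synthetase genes are known targets of ATF4, the transcription factor of the amino acid response.

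The libraries held 30132499 to 42782318 estimated fragments. Klf15 itself was at 345.5, 174.2 and 195.9 CPM in the Ctl libraries and 54.33, 41.59 and 51.79 in those of Li-KO, in the order of replicates 0, 1 and 2 that is used throughout (CPM, counts relative to the TMM-scaled library total). Its log2 fold change, Li-KO against Ctl, was -2.28 ± 0.26 (SE, n = 3 and 3, adjusted p = 0.00275 by edgeR's quasi-likelihood test). Hepatocyte markers summed to 17850 to 24470 CPM in the Ctl libraries and 19160 to 21280 in those of Li-KO, over the 7 of 9 markers that were quantified. For none of 8 lists of cell type markers were the summed levels of the groups apart, although single markers were. Of the hepatocyte list, Ttr and Apoc3 lay above Ctl in every Li-KO library, with log2 fold changes of 0.56 (edgeR adjusted p = 0.11) and 0.35 (adjusted p = 0.175). Tdo2, a hepatocyte marker that degrades tryptophan, lay below, at 1735 to 3095 CPM over the Ctl libraries and 497.6 to 552.9 over those of Li-KO (log2 fold change -2.14, edgeR adjusted p = 0.00179). Sox9, a cholangiocyte marker, was at 11.7 to 16.6 CPM and at 2.09 to 3.32 (-2.39, adjusted p = 0.00153), while Epcam, another, lay above Ctl in every Li-KO library (0.96, adjusted p = 0.085). The cholangiocyte, the stellate cell and fibroblast, and the lymphocyte sums were highest in Li-KO replicate 0, at 151.4, 682.4 and 33.35 CPM. The other 5 libraries reached at most 65.42, 588.3 and 29.69. In that library Spp1 alone gave 143.6 of the 151.4 CPM, Col3a1 236.8 of the 682.4 and Ptprc 27.1 of the 33.35. Of the stellate cell and fibroblast list, Dcn (143.1 CPM) and Reln (204.5) were lowest there, while Col1a1 (33.42) was highest. Of 8 pancreatic acinar markers, Cpa1, Pnlip, Prss2 and Amy2a5 were at 0 in all libraries. Cela3b, Ctrb1 and Cel had at most 4 counts in any library, while Cela1 was at 5.865 to 12.46 CPM.

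Over the 36 synthetase genes, Tars, which charges threonine tRNAs in the cytoplasm, fell in Li-KO, and Fars2, which charges phenylalanine tRNA in the mitochondrion, rose. No other member passed the test. Calls were made at an adjusted p under 0.05, with p-values adjusted over all 16533 genes tested, and all 36 members passed the filter on low counts, the lowest member count in any library being 85. The share of members called, 2 of 36 or 5.56%, stood below the background of 12.0% of all genes tested (1986 genes, 6.11% higher and 5.9% lower). In bulk liver, fewer cells of a type and less RNA per cell cannot be told apart.

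Among the 20 cytoplasmic members 0 were called higher and 1 lower, and among the 16 mitochondrial members 1 was called higher and 0 lower. The median log2 fold change was 0.10 for the cytoplasmic and 0.12 for the mitochondrial genes, against -0.01 for all genes tested. Values lay above 0 for 15 of 20 cytoplasmic and 11 of 16 mitochondrial members, against 49.2% of all genes. At an unadjusted p under 0.05, which 29.4% of all genes reached, stood 5 cytoplasmic members higher and 1 lower, and 4 mitochondrial members higher and 0 lower. The CPM of the groups did not overlap for 17 of the 36 members (47.2%), 13 higher and 4 lower in Li-KO, beside 35.2% of all genes (17.4% higher and 17.8% lower). Those lower were Tars, Eprs, Iars and Vars, all cytoplasmic, and the 13 higher were 7 cytoplasmic and 6 mitochondrial genes.

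**Figure D1:**
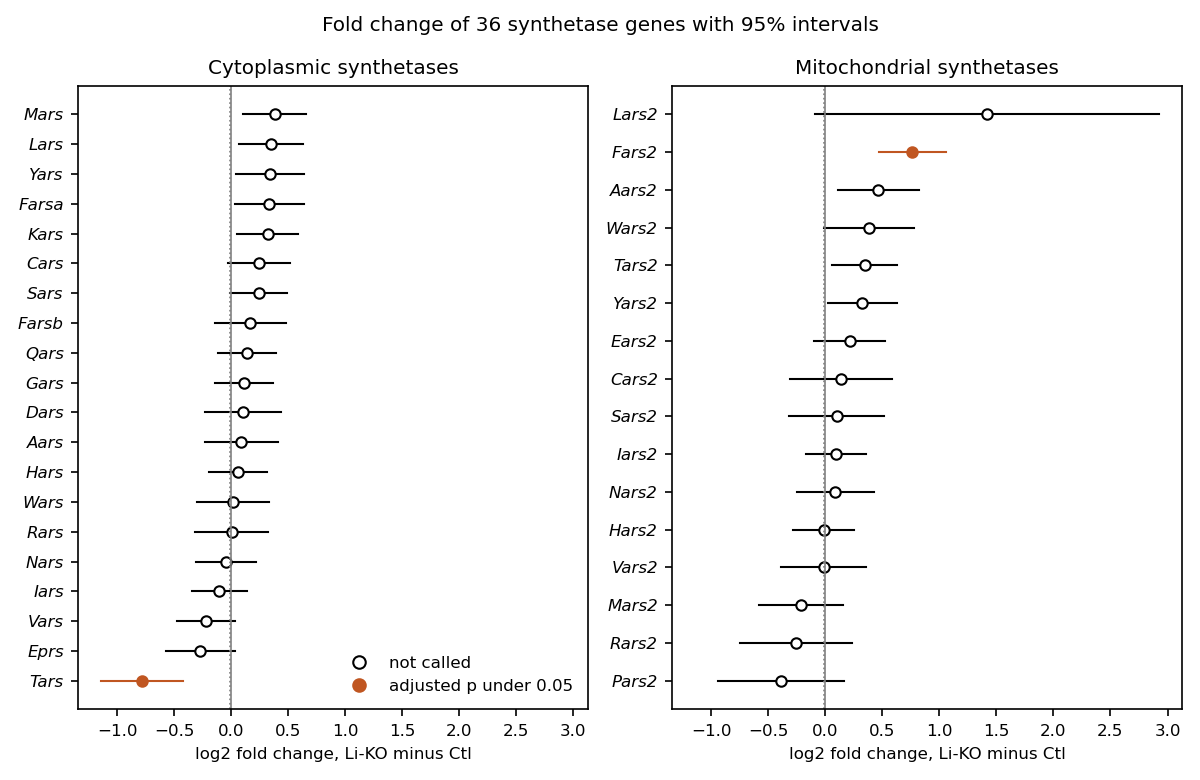
Log2 fold change of each synthetase gene (x axis, Li-KO minus Ctl) with its 95% interval from the edgeR fit, cytoplasmic genes on the left and mitochondrial genes on the right, ordered by size. Filled points mark Tars (-0.78) and Fars2 (0.76), the members with an adjusted p under 0.05, and Lars2 has the widest interval.

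Most members were measured tightly enough to bound their change. For the 33 members that were neither called nor Lars2, the log2 fold change ran from -0.39 to 0.46 with standard errors of 0.10 to 0.24. The 95% interval of each of these 33 stayed within a 2-fold change in either direction, the lowest bound being -0.94 for Pars2 and the highest 0.82 for Aars2. A p that misses the threshold does not show that a gene was the same in both groups.

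The promoters of Tars and Fars2 are shown because these are the called members, and those of Aars and Gars because they carry the same 8-base motif as Tars without a call. Each line gives the 250 bases before the RefSeq transcription start (GRCm38.p6, gene strand, 5′ to 3′). Capitals mark TGATGNAA, the composite site bound by ATF4 and C/EBP factors, and GGGCGG, the GC box, on either strand.
Tars: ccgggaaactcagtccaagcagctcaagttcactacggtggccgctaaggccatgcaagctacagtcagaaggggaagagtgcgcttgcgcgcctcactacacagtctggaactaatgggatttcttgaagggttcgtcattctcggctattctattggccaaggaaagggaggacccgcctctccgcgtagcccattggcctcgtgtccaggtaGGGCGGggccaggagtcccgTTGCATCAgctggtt
Fars2: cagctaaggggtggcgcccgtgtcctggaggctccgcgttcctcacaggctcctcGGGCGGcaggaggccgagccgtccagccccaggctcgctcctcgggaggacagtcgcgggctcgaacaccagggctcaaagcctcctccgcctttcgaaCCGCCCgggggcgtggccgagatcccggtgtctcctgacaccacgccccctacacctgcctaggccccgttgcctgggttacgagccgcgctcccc
Aars: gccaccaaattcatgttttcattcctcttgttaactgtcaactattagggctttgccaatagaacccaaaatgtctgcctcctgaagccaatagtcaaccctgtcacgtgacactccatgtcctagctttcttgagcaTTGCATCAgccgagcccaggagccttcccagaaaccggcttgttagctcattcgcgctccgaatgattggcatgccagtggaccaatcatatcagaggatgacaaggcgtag
Gars: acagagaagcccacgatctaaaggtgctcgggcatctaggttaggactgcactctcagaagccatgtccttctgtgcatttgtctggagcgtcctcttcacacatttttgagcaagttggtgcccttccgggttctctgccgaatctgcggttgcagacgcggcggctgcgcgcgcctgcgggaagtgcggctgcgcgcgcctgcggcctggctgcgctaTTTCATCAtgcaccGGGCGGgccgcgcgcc
The windows are chr15:11399659-11399908 for Tars (minus strand), chr13:36117393-36117642 for Fars2, chr8:111033592-111033841 for Aars and chr6:55037751-55038000 for Gars (plus strand). The motif TGATGNAA lies on the reverse strand of each gene, as TTGCATCA or TTTCATCA, and starts 15 bases before the start site in Tars, 30 in Gars and 112 in Aars. It is not in the Fars2 window, where the capitals mark GC boxes alone. The GENCODE models of Tars, Fars2 and Aars start upstream of the RefSeq start, so that the last bases of the Tars window, most of the Fars2 window and all of the Aars window lie inside the annotated gene.

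Tars (ENSMUSG00000022241.5, chr15:11382301-11399665 on mm10, minus strand, 17 exon blocks) encodes the cytoplasmic threonyl-tRNA synthetase. It stood at 190.4, 175.6 and 180.5 CPM in the Ctl libraries and 82.02, 119.4 and 116.8 in those of Li-KO. All 3 Li-KO libraries lay below all 3 Ctl libraries, and Li-KO replicate 0 was the lowest. The Ctl mean was 182 ± 7.6 CPM and the Li-KO mean 106 ± 21 (SD, n = 3 each), a log2 fold change of -0.78 ± 0.16 (SE) with a 95% interval of -1.14 to -0.42 (edgeR, adjusted p = 0.0194). The direction held when each library was left out, with log2 fold changes of -0.87 to -0.61. The adjusted p went above 0.05 when Ctl replicate 1 (0.0732), Ctl replicate 2 (0.0649) or Li-KO replicate 1 (0.0556) was left out. No annotated transcript of another gene shared a near-identical stretch with Tars of at least 200 bases at 97% identity.

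Values of the other genes for threonine charging were not lower in Li-KO. Tars2, the mitochondrial enzyme, stood at 30.79, 29.71 and 29.66 CPM in the Ctl libraries and 40.77, 40.17 and 33.49 in those of Li-KO. Tarsl2, a threonyl-tRNA synthetase-like gene outside the member list, stood at 25.52, 21.64 and 23.74 CPM in the Ctl libraries and 28.97, 30.8 and 31.45 in those of Li-KO. Both lay above Ctl in all 3 Li-KO libraries, opposite to Tars, and neither passed the test: the log2 fold change was 0.34 ± 0.12 for Tars2 (edgeR, adjusted p = 0.107) and 0.36 ± 0.12 for Tarsl2 (adjusted p = 0.0881). The log2 ratio of Tars to Tars2 by CPM was 2.63, 2.56 and 2.61 in the Ctl libraries and 1.01, 1.57 and 1.80 in those of Li-KO, a difference of -1.14.

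Fars2 (ENSMUSG00000021420.12, chr13:36117412-36726280 on mm10, plus strand, 16 exon blocks) encodes the mitochondrial phenylalanyl-tRNA synthetase, a single-chain enzyme. It stood at 34.48, 29.76 and 33.16 CPM in the Ctl libraries and 61.75, 52.67 and 50.70 in those of Li-KO. All 3 Li-KO libraries lay above all 3 Ctl libraries, with a gap wider than the spread within either group. The Ctl mean was 32.5 ± 2.4 CPM and the Li-KO mean 55.0 ± 5.9 (SD, n = 3 each), a log2 fold change of 0.76 ± 0.13 (SE) with a 95% interval of 0.47 to 1.05 (edgeR, adjusted p = 0.0111). Leaving out each library gave 0.69 to 0.81, and the adjusted p went above 0.05 without Ctl replicate 1 (0.0578).

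Fars2 shares exonic bases with genes on the opposite strand, and no source used here gives the strand setting of the authors' counting. Nrn1, a neuronal growth factor gene, overlaps it by 501 exonic bases and stood at 258.6, 224.9 and 234.4 CPM in the Ctl libraries and 175.8, 204.0 and 277.5 in those of Li-KO, so its groups overlapped (log2 fold change -0.13, edgeR adjusted p = 0.674). Lyrm4, which codes for a protein of mitochondrial iron-sulfur cluster assembly, starts on the other strand within the 5′ end of Fars2 and overlaps it by 115 exonic bases. Lyrm4 was at 6.61 to 10.8 CPM over the 6 libraries, with a log2 fold change of -0.26 (edgeR, adjusted p = 0.46). Neither neighbour was higher in Li-KO on average, and the part of their fragments in the Fars2 value was not tested.

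The cytoplasmic phenylalanyl enzyme is built from the products of Farsa and Farsb. Farsa stood at 26.31, 23.55 and 24.96 CPM in the Ctl libraries and 31.74, 35.07 and 27.51 in those of Li-KO, above Ctl in every library (log2 fold change 0.33 ± 0.13, edgeR adjusted p = 0.138). Farsb stood at 38.17, 39.80 and 44.14 CPM in the Ctl libraries and 39.96, 52.25 and 44.84 in those of Li-KO, and its groups overlapped (0.17 ± 0.14, adjusted p = 0.458). Both subunit genes thus had smaller values than Fars2 in the same direction. The log2 ratio by CPM to Fars2 was lower in all 3 Li-KO libraries for Farsa (difference -0.43) and Farsb (difference -0.60).

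**Figure D2:**
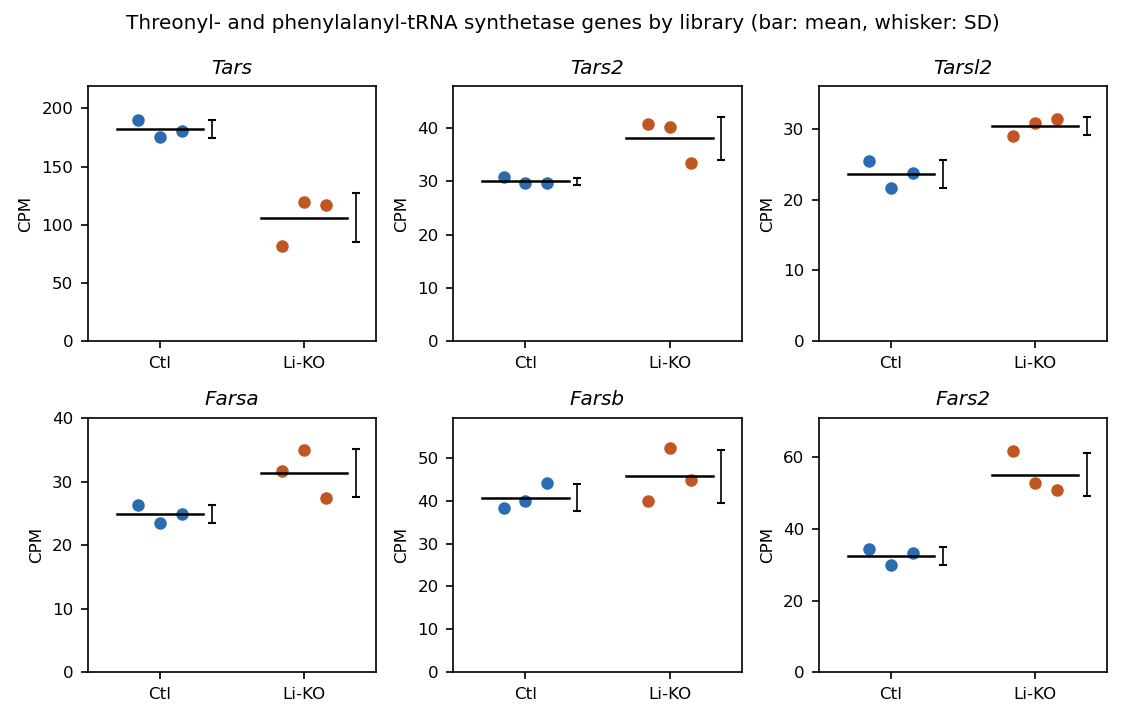
CPM of the threonyl-tRNA synthetase genes (top row) and phenylalanyl-tRNA synthetase genes (bottom row) in each library, with y axes that start at 0, the group mean as a bar and the SD as a whisker (n = 3 each). Tars is lower in all 3 Li-KO libraries, while Tars2, Tarsl2, Farsa and Fars2 are higher in all 3 and the groups overlap for Farsb.

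The same ratio was taken for 17 pairs of a cytoplasmic and a mitochondrial gene for the same amino acid. With 3 libraries a group the exact two-sided permutation test cannot go below p = 0.1, so no pair could pass, and the smallest adjusted value over the 17 pairs was 0.283. The ratio was lower in every Li-KO library than in any Ctl library for 5 pairs: Tars to Tars2, Farsa to Fars2, Farsb to Fars2, Aars to Aars2 (difference -0.38) and Eprs to Ears2 (difference -0.48). It was higher for 1 pair, Mars to Mars2 (difference 0.61), and the groups overlapped for 11. Among single genes, the CPM of the groups did not overlap for 35.2% of all genes tested, and no such share was taken over pairs of other genes. Pairs that share Fars2 or Eprs are not independent of each other, and those with Tars or Fars2 hold a called gene.

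Of the synthetases in the multi-synthetase complex, no gene passed the test. Mars, the methionyl enzyme, had the smallest adjusted p of the cytoplasmic members that were not called. It stood at 92.26, 84.74 and 81.76 CPM in the Ctl libraries and 116.3, 121.6 and 98.99 in those of Li-KO, above Ctl in every library, with a log2 fold change of 0.38 ± 0.12 (edgeR, adjusted p = 0.0758). DESeq2, which called 19.0% of all genes, called it higher (adjusted p = 0.0471), as did edgeR without Li-KO replicate 2 (log2 fold change 0.46, adjusted p = 0.0384). Mars shares 68 exonic bases with Ddit3 on the opposite strand, a stress response gene that was at 6.41 to 16.8 CPM over the 6 libraries.

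Lars, the leucyl enzyme, and Kars, the lysyl enzyme, also lay above Ctl in every Li-KO library. Lars stood at 61.39, 54.28 and 66.85 CPM in the Ctl libraries and 83.95, 75.76 and 72.77 in those of Li-KO (log2 fold change 0.35 ± 0.12, edgeR adjusted p = 0.1). Kars stood at 66.02, 59.99 and 74.17 CPM in the Ctl libraries and 79.99, 86.68 and 83.27 in those of Li-KO (0.32 ± 0.12, adjusted p = 0.111). For Dars, Qars and Rars, the aspartyl, glutaminyl and arginyl enzymes, the groups overlapped, with log2 fold changes of 0.10, 0.14 and 0.00.

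Eprs and Iars, which belong to the same complex, lay below Ctl in every Li-KO library. Eprs, a fused enzyme that charges both glutamate and proline tRNAs, stood at 329.6, 288.8 and 377.1 CPM in the Ctl libraries and 286.1, 270.0 and 269.4 in those of Li-KO (log2 fold change -0.27 ± 0.13, edgeR adjusted p = 0.219). The gap between the groups was narrow, 288.8 in Ctl replicate 1 against 286.1 in Li-KO replicate 0. Iars, the isoleucyl enzyme, had a log2 fold change of -0.10 ± 0.10 (adjusted p = 0.55).

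The scaffold genes of the complex were not called either. Aimp1 stood at 22.09, 23.09 and 22.81 CPM in the Ctl libraries and 29.23, 30.7 and 27.1 in those of Li-KO (log2 fold change 0.36 ± 0.12, edgeR adjusted p = 0.0831). Aimp2 stood at 11.41, 10.01 and 11.22 CPM in the Ctl libraries and 14.76, 14.77 and 14.05 in those of Li-KO (0.42 ± 0.14, adjusted p = 0.0866). Both were above Ctl in every Li-KO library, while the groups overlapped for Eef1e1, the third scaffold gene (0.09 ± 0.22, adjusted p = 0.816).

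The remaining cytoplasmic members act outside the complex. Aars, the alanyl enzyme, had the highest mean CPM of all members, at 349.3, 402.5 and 375.2 CPM in the Ctl libraries and 427.1, 430.5 and 339.7 in those of Li-KO. Its groups overlapped (log2 fold change 0.09 ± 0.14, edgeR adjusted p = 0.724). Aars shares 1326 exonic bases, the whole length of the Exosc6 transcript, with Exosc6 on the same strand. Exosc6 was at 0 in all libraries, so the files place no fragments of the shared stretch in Exosc6. Whether the Aars value holds fragments from Exosc6 was not tested. Vars, the valyl enzyme, was lower in every Li-KO library, at 57.94, 52.99 and 49.87 CPM in the Ctl libraries and 46.37, 46.82 and 44.99 in those of Li-KO (-0.22 ± 0.11, adjusted p = 0.232). Yars, the tyrosyl enzyme, was higher in every Li-KO library, at 41.43, 36.36 and 39.90 CPM in the Ctl libraries and 51.11, 54.85 and 43.09 in those of Li-KO (0.34 ± 0.13, adjusted p = 0.125). Cars and Sars, the cysteinyl and seryl enzymes, were each at a log2 fold change of 0.24 with groups apart, at adjusted p = 0.212 and 0.186. Gars, Hars, Nars and Wars, the glycyl, histidyl, asparaginyl and tryptophanyl enzymes, ran from -0.05 to 0.11 with overlapping groups.

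Among the mitochondrial members that were not called, Aars2 had the smallest adjusted p. This alanyl enzyme stood at 28.18, 26.02 and 22.89 CPM in the Ctl libraries and 40.09, 37.09 and 29.19 in those of Li-KO, above Ctl in every library (log2 fold change 0.46 ± 0.16, edgeR adjusted p = 0.0872). Without Li-KO replicate 2 it was called higher (0.58, adjusted p = 0.0337). Yars2 stood at 20.82, 16.5 and 18.41 CPM in the Ctl libraries and 22.3, 23.22 and 24.3 in those of Li-KO (0.33 ± 0.13, adjusted p = 0.149). Wars2 and Ears2, the tryptophanyl and glutamyl enzymes, were also above Ctl in every Li-KO library, at 0.39 (adjusted p = 0.178) and 0.21 (adjusted p = 0.351).

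The lowest fold change of this class was that of Pars2, the prolyl enzyme and the member with the lowest counts. Pars2 stood at 3.12, 4.14 and 4.22 CPM in the Ctl libraries and 2.74, 2.79 and 3.21 in those of Li-KO, and the groups overlapped through Ctl replicate 0 and Li-KO replicate 2 (log2 fold change -0.39 ± 0.24, edgeR adjusted p = 0.322). Mars2 and Rars2, the methionyl and arginyl enzymes, were at -0.22 and -0.26 with overlapping groups. Cars2, Hars2, Iars2, Nars2, Sars2 and Vars2 ran from -0.02 to 0.14, also with overlapping groups. The 2034 bases that Iars2 shares with Rab3gap2 and the smaller overlaps of Cars2, Nars2 and Vars2 with genes on the opposite strand have the same limit as those of Fars2.

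Lars2, the mitochondrial leucyl enzyme (chr9:123366927-123462666), had the largest fold change of all members, and it rested on 1 library. It stood at 34.53, 30.52 and 17.48 CPM in the Ctl libraries and 163.5, 22.61 and 34.71 in those of Li-KO. Li-KO replicate 0 was far above the rest and the other 5 libraries were intermixed. The log2 fold change was 1.42 ± 0.66 (edgeR, adjusted p = 0.193), and without Li-KO replicate 0 it was 0.08 (adjusted p = 0.896).

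The same library was high in 2 genes of ribosomal RNA type, chosen after their values were seen. Gm42418 stood at 400.4, 489.4 and 153.6 CPM in the Ctl libraries and 2085, 300.1 and 337.8 in those of Li-KO. The 5.8S ribosomal RNA gene n-R5-8s1 stood at 15.2, 2.31 and 0.796 CPM in the Ctl libraries and 51.9, 15.9 and 18.2 in those of Li-KO. AY036118, another gene with ribosomal RNA sequence, did not follow them and was highest in Ctl replicate 0, at 6519 CPM against 781 to 2385 in the other 5 libraries. No stretch of 100 bases or more at 90% identity was shared between the transcripts of Lars2 and these 3 genes, and the part of the library's ribosomal RNA in the Lars2 value was not tested.

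**Figure D3:**
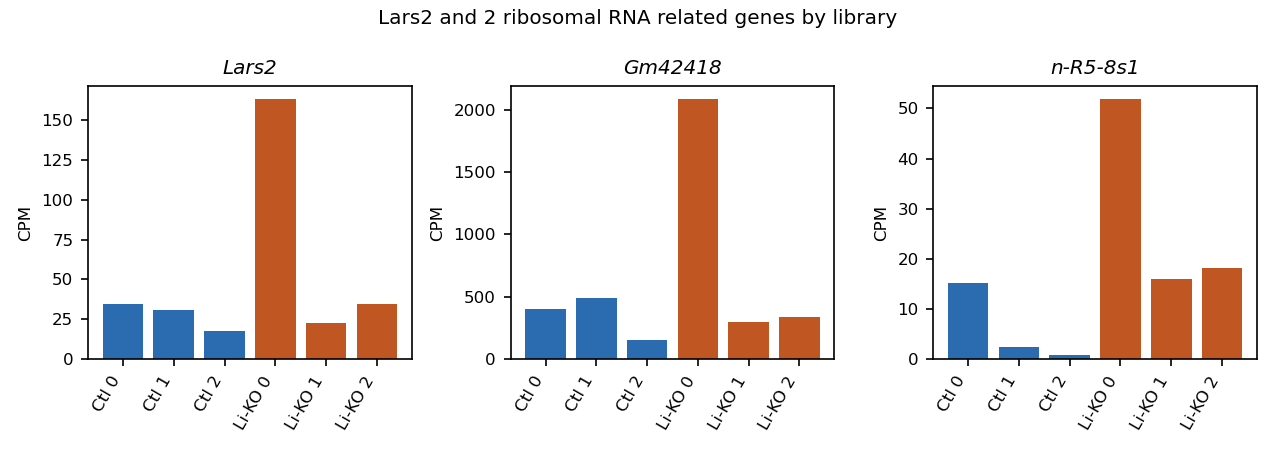
CPM of Lars2, Gm42418 and n-R5-8s1 in each of the 6 libraries, as bars from 0. Li-KO replicate 0 holds the highest bar in each panel, at 163.5, 2085 and 51.9 CPM.

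Levels were compared between genes on the FPKM scale, which divides by transcript length. The median level was 19.1 FPKM for the cytoplasmic members in Ctl and 19.7 in Li-KO, and 5.70 FPKM for the mitochondrial members in Ctl and 7.44 in Li-KO. Cytoplasmic levels in Ctl ran from 9.60 FPKM for Cars to 50.5 for Aars, and mitochondrial levels from 1.31 for Pars2 to 17.7 for Iars2. The ranges of the classes overlapped, since Iars2 and Fars2 stood above the lower cytoplasmic genes.

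In Ctl the order of the levels began with Aars (50.5 ± 3.1 FPKM, SD, n = 3), Tars (49.7 ± 2.4), Nars (47.7), Eprs (45.3) and Dars (40.5), followed at a distance by Sars (26.1) and Kars (23.2). Of the 35 neighbouring pairs in this order, 28 overlapped over their libraries and 7 did not, so most single steps are within the spread. In Li-KO Tars was at 29.1 ± 5.8 FPKM and moved from the second to the seventh place of the 36, while Aars kept the highest level at 53.0 ± 5.7 FPKM. Fars2 went from 12.3 FPKM and place 16 to 20.5 FPKM and place 10, above Iars2 (19.1 FPKM), which made it the highest mitochondrial member there.

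The summed level of the cytoplasmic members was 1963, 1910 and 2114 CPM in the Ctl libraries and 1990, 2065 and 1907 in those of Li-KO, with overlapping groups. The mitochondrial members summed to 442.6, 405.8 and 415.1 CPM in the Ctl libraries and to 629.9, 472.6 and 457.8 in those of Li-KO. These groups did not overlap, and Lars2 gave 163.5 of the 629.9 CPM in Li-KO replicate 0. In the 2 libraries nearest each other, Lars2 gave similar parts: 34.53 of 442.6 CPM in Ctl replicate 0 and 34.71 of 457.8 in Li-KO replicate 2. The called member Fars2 gave 34.48 CPM in the first and 50.70 in the second. Its step was larger than that between the 2 sums, so the groups overlap without Fars2. The genes varied little between libraries of a group: the median coefficient of variation was 7.42% in Ctl and 7.11% in Li-KO for the cytoplasmic members and 9.30% and 10.1% for the mitochondrial members.

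**Figure D4:**
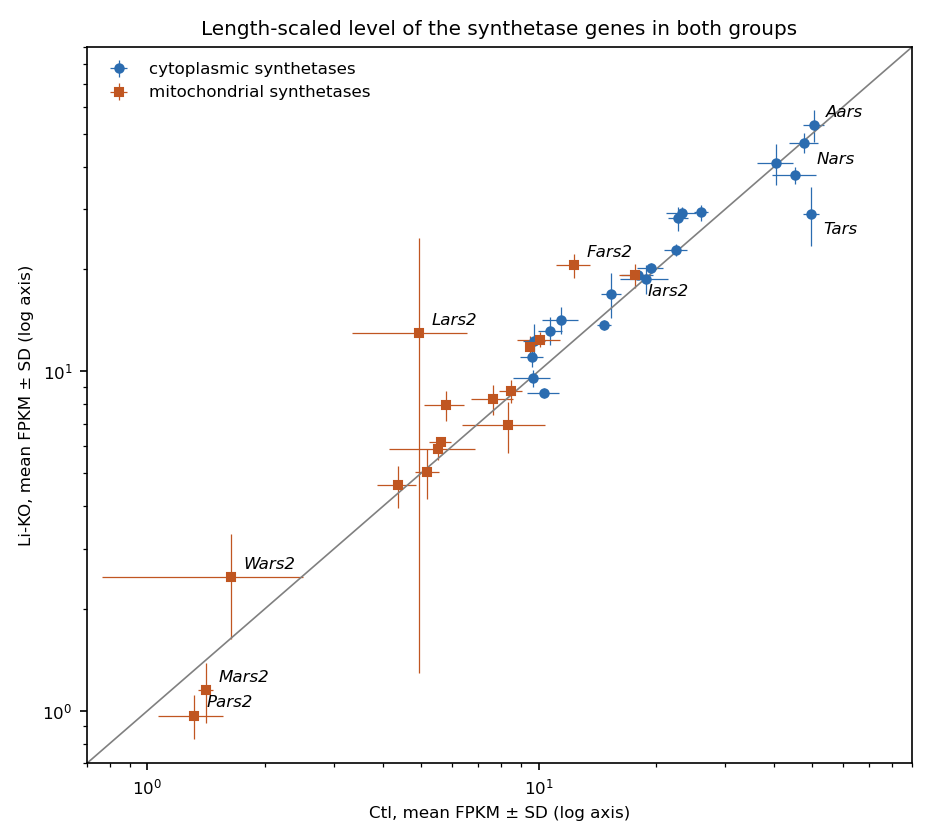
Mean FPKM of each synthetase gene in Ctl (x axis) against Li-KO (y axis), both on log scales, with the SD over 3 libraries as whiskers and the line of equal level. The Li-KO whisker of Lars2 is cut short, since its SD (13.64 FPKM) exceeds its mean (12.95). Cytoplasmic genes lie mostly above mitochondrial ones, Tars lies below the line (49.7 against 29.1 FPKM), and Fars2 (12.3 against 20.5) and Lars2 lie above it.

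Windows from the promoter table used here, from RefSeq on GRCm38.p6, were taken for 27 of the members, with Mars matched as Mars1. No window was found by name for Cars, Pars2, Rars, Vars and Wars. Members on chromosome 18, which are Hars, Hars2, Lars and Nars, were left out of the counts. The searched window was 300 bases, 250 before to 50 after the start, on both strands, and each motif was searched on its own, so matches of different motifs may share bases. TGATGNAA was in 5 members, all cytoplasmic: Aars, Gars, Iars, Tars and Yars. In Iars and Yars the only match lies after the start, and Aars has a further match there. Over all 32851 promoters in the table, from which no chromosome was left out, the share was 4.0%. The 5 genes did not move together: their median log2 fold change was 0.09, with Tars called lower, Iars lower and Yars higher in every Li-KO library without a call, and overlapping groups for Aars and Gars. The 8 cytoplasmic members with a window in the counts and without this motif had a median of 0.20 and 0 calls.

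The GC box GGGCGG was in 19 of the 27 member windows and in 35.7% of all promoters. The motif CCACCC, of the kind Kruppel-like factors bind, was in 9 of the 27 and in 31.5% of all promoters. Fars2 has this motif and Tars has not, while both have the GC box. The E-box CACGTG was in 5 members, Aars, Farsb, Iars, Tars and Ears2, and in 7.2% of all promoters. Each match is a description of the letters in the window.

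Genes that work with the synthetases gave no edgeR call in 4 lists, beside 12.0% of all genes tested. These were the 3 scaffold genes (median log2 fold change 0.36), 15 other genes of charging, editing and amidation (median 0.22), 7 cytosolic elongation factors (0.24) and 10 mitochondrial translation factors (0.15). At an unadjusted p under 0.05 (edgeR) these lists held 2, 4, 2 and 3 genes, all higher, beside 29.4% of all genes in either direction and 14.6% higher. DESeq2 called 0, 1, 1 and 1 genes higher (19.0% of all genes, either direction) and limma-voom 0, 0, 1 and 0 (12.1%). Tsfm, a mitochondrial elongation factor, was closest to the threshold at 13.18, 13.19 and 13.37 CPM in the Ctl libraries and 18.53, 17.66 and 17.52 in those of Li-KO (0.44 ± 0.13, edgeR adjusted p = 0.0562). Gatb, a subunit of the amidotransferase that makes glutaminyl-tRNA in mitochondria, stood at 40.43, 37.0 and 38.89 CPM in the Ctl libraries and 47.6, 50.71 and 50.38 in those of Li-KO (0.35 ± 0.11, adjusted p = 0.0674). Eef1a1, which brings charged tRNA to the cytosolic ribosome, stood at 2198, 1729 and 1966 CPM in the Ctl libraries and 2746, 2769 and 2793 in those of Li-KO (0.50 ± 0.16, adjusted p = 0.0734).

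In the list of ATF4 and amino acid response genes, 33 of 35 were tested, 7 were called higher and 1 lower (24.2%, beside the 12.0% of all genes), and the median log2 fold change was 0.18. Atf4 itself rose, from 112.5, 104.2 and 121.9 CPM in the Ctl libraries and 151.1, 218.3 and 163.3 in those of Li-KO (0.65 ± 0.16, edgeR adjusted p = 0.0335). Shmt2, a mitochondrial serine hydroxymethyltransferase, rose from 211.2, 226.6 and 209.4 CPM in the Ctl libraries and 300.0, 339.1 and 290.3 in those of Li-KO (0.52 ± 0.12, adjusted p = 0.0294). In both genes all Li-KO libraries were above all Ctl libraries.

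Asns, asparagine synthetase, and Psat1, an enzyme of serine synthesis, had the largest fold changes of the called genes in the list and wide spread. Asns was at 14.69, 3.229 and 1.857 CPM in the Ctl libraries and 88.98, 65.16 and 14.97 in those of Li-KO (3.09 ± 0.84, edgeR adjusted p = 0.048), and the highest Ctl library nearly reached the lowest Li-KO library. Psat1 was at 0.288, 0.727 and 0.929 CPM in the Ctl libraries and 5.61, 5.40 and 1.82 in those of Li-KO (2.72 ± 0.56, adjusted p = 0.0205). Stbd1, a glycogen-binding protein, and Trib3, a pseudokinase, rose by 0.61 (adjusted p = 0.0289) and 0.98 (adjusted p = 0.0496), and Gdf15, a secreted stress factor, rose by 1.72 (adjusted p = 0.0396). Atf5, a related transcription factor, fell by 0.68 (adjusted p = 0.0452), and the groups overlapped for Ddit3 (0.20, adjusted p = 0.743).

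These calls depend on several of the libraries. The number of genes called higher in the ATF4 list was 0 when Ctl replicate 1, Ctl replicate 2 or Li-KO replicate 1 was left out, 4 when replicate 0 of either group was, and 6 when Li-KO replicate 2 was. The call of Atf5 was lost when any Ctl library or Li-KO replicate 0 or 1 was left out, and 1 gene was called lower without Li-KO replicate 2. Calls over all genes ranged from 198 higher and 234 lower without Ctl replicate 1 to 1102 higher and 1447 lower without Li-KO replicate 2.

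In the interferon list, which was included because Wars is an interferon-responsive gene, 1 of 19 genes tested was called higher, Irf7 (0.97, edgeR adjusted p = 0.0497), which is 5.26% beside 12.0% of all genes, with a list median of 0.07. Irf7 lost its call in 11 of 16 alternatives, limma-voom (adjusted p = 0.069) and the omission of any library but Li-KO replicate 2 (up to 0.162) among them. Wars had a log2 fold change of 0.01 ± 0.14 (adjusted p = 0.96). In the list of Myc, mTORC1 and growth genes, 1 of 23 was called, Sesn3, lower (-0.52, edgeR adjusted p = 0.0447), which is 4.35% beside 12.0% of all genes, and the median was 0.03. Sesn3 lost its call in 10 of 16 alternatives, the limma fits on FPKM (adjusted p up to 0.532) and the omission of any library but Li-KO replicate 0 (up to 0.182) among them.

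**Figure D5:**
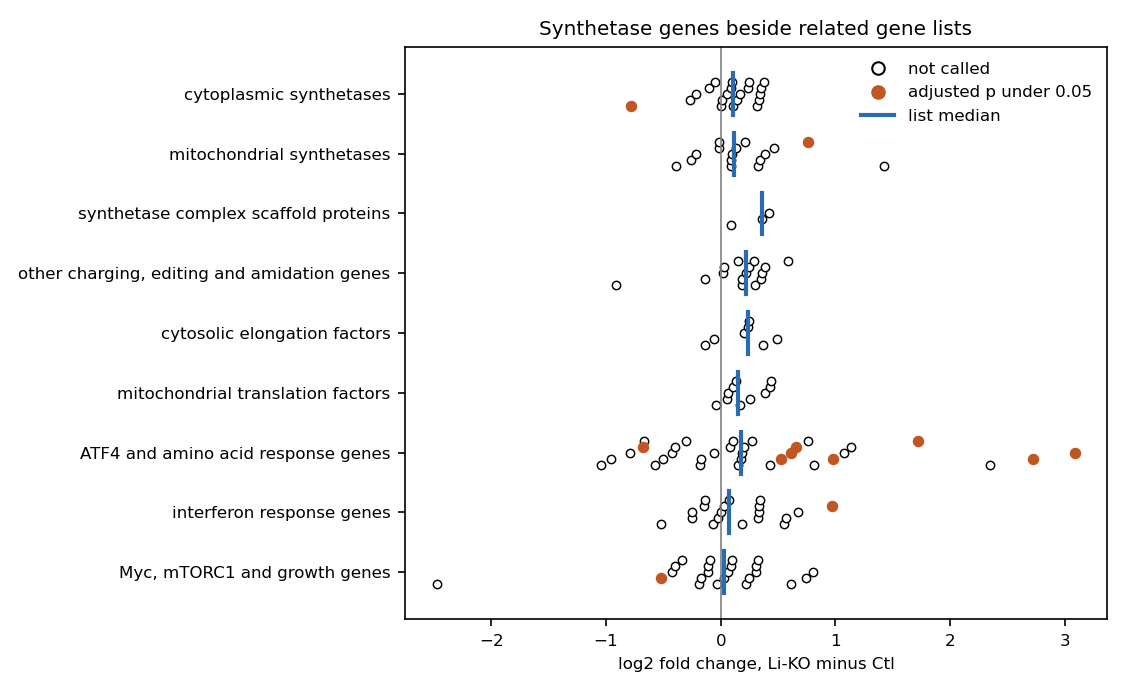
Log2 fold change (x axis, Li-KO minus Ctl) of every tested gene in the synthetase classes and the 7 related lists, with filled points for an adjusted p under 0.05 (edgeR) and a bar at each list's median. The synthetases and translation factors lie mostly within 0.5 of 0, though the synthetases run from -0.78 to 1.42. The ATF4 list runs from -1.04 to 3.09, with a median standard error of 0.31 against 0.13 for the synthetases. The list of Myc, mTORC1 and growth genes reaches -2.47.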

How the data were processed

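Liver RNA of 3 Ctl and 3 Li-KO libraries was profiled by total RNA sequencing with a stranded kit, per the labels' protocols. The submitters' processing notes name STAR, Cufflinks, Cuffdiff and the mm10 build, without versions, annotation or strand setting. The deposited table gives the authors' estimated counts per gene and library, not normalized, and FPKM after Cuffdiff's scaling between libraries, per the file headers. The conditions WT and KO were taken as Ctl and Li-KO by sample title and replicate number, and 0 rows were left without a sample. Of 48432 gene IDs, 48051 matched a symbol. Cuffdiff skipped 77 genes in some library, which were left out; no member was among them. Estimated counts, 3.29% of them not whole, were rounded. Genes were filtered with filterByExpr (minimum count 10, minimum total 15), scaled by TMM and tested with edgeR 4.0.16 (quasi-likelihood, two-sided, group as the only term, Benjamini-Hochberg over 16533 genes) in R 4.3.3. Standard errors were derived from each F statistic. DESeq2 1.42.0, limma 3.58.1 (voom, and log2 of FPKM + 1 or + 0.1), other scalings, no filter, a replicate block and leaving out each library were alternatives. Shared sequence was searched with BLAST 2.17.0 over GENCODE M21 transcripts (mm10). The fit was tested on simulated data. No batch is given in the labels.

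All 36 members are named, with Klf15. Values in every library are given for members that were called, of largest fold change or of highest level, and for others near the threshold. Of each related list up to 4 called genes with the smallest p are named, with Atf4, Asns, Ddit3 and Trib3 whatever their p. Gdf15, Atf5, Ttr, Apoc3, Tdo2, Sox9, Epcam, Nrn1, Lyrm4, the ribosomal RNA genes and the genes near the threshold were added after their values were seen. The members and lists were chosen with earlier results of these data known. Replicate numbers were not used to pair libraries.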

Additional observations from a re-analysis of the deposited data

How the results depend on the processing

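Over the 36 members and 16 alternatives, 542 of 576 log2 fold changes kept their direction and side of the threshold, 5 lost the call, 3 gained one and 26 changed sign. DESeq2 called 1595 genes higher and 1551 lower, with 1 cytoplasmic member higher (Mars). Limma on log2(FPKM + 1) without a filter called 395 higher and 413 lower, and 0 cytoplasmic members lower, since Tars had an adjusted p of 0.0639. Leaving out each library gave 198 to 1102 genes higher and 234 to 1447 lower, 0 to 1 cytoplasmic members higher, 0 to 1 lower, and 0 to 2 mitochondrial members higher. The ATF4 list, run under the alternatives only after its values were seen, held 4, 3 and 1 genes called higher with limma on log2(FPKM + 1), log2(FPKM + 0.1) and log2(FPKM + 1) without a filter.

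Signs turned only in members near 0. Rars was at -0.0071 with library totals alone and at -0.0065, -0.0067 and -0.0065 in the limma fits on FPKM (+ 1, + 0.1, no filter). Wars was at -0.014, -0.015 and -0.014 and Hars2 at 0.035, 0.038 and 0.035 in those fits. With each library left out, Nars ran from -0.086 to 0.025, Rars from -0.065 to 0.12, Wars from -0.054 to 0.12, Hars2 from -0.057 to 0.054, Nars2 from -5.2e-05 to 0.20, Sars2 from -0.047 to 0.20 and Vars2 from -0.18 to 0.086. Outside the members, Ddit3 ran from -0.027 to 0.75 and Gm42418 from -0.11 to 1.80. The cause was not tested.

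The replicate numbers are shared by the groups, but deviations of same-numbered libraries correlated at 0.018, 0.081 and 0.067, and Ctl replicate 0 correlated best with another number, at 0.037. With a replicate block 956 genes were higher and 1015 lower, Tars was at -0.80 (adjusted p = 0.0253) and Fars2 at 0.76 (adjusted p = 0.0152), and 2 genes of the ATF4 list were called lower in place of 1, while Trib3 (adjusted p = 0.0723), Irf7 (0.0604) and Sesn3 (0.0636) lost their calls. With 3 libraries a group, small changes of low genes such as Pars2 cannot be resolved.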
